A study of Mus musculus with 9 samples.

Results

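Nucleotide excision repair (NER) genes were followed through single-cell RNA libraries of 9 mouse kidneys. The members were the 10 genes Xpc, Ddb1, Ddb2, Xpa, Ercc2, Ercc3, Ercc1, Ercc4, Ercc5 and Polh, chosen by name for the repair and bypass of cisplatin adducts, of 32427 gene symbols in the count matrices. The mice were male C57BL/6 animals, 6 weeks old on arrival, with 3 mice in each of 3 groups. AKI-CKD mice received cisplatin at 8 mg/kg into the peritoneum once a week for 4 injections, and Control mice received saline. AKI-CKD + EGT mice received the same cisplatin and also ergothioneine (EGT), a dietary thiol antioxidant, at 0.5 mg/mL in their drinking water from before the first injection to the end. Kidneys were collected at 8 weeks, and part of a kidney of each mouse was dissociated for droplet libraries primed on poly(A) tails. The values therefore describe mRNA left at the end of a repeated low-dose model and not repair activity or the days after a dose.

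NER removes adducts that bend the DNA helix, among them the platinum crosslinks that cisplatin leaves within a strand. In the global branch XPC and the DDB1-DDB2 complex find the distorted site, whereas a stalled RNA polymerase marks it in transcribed genes, and both routes then pass to TFIIH, whose helicases XPB (Ercc3) and XPD (Ercc2) open the DNA, and to XPA, which checks the lesion. The nucleases ERCC1-XPF (Ercc1 and Ercc4) and XPG (Ercc5) cut on either side, the gap is refilled and ligated, and adducts that remain can be copied past by DNA polymerase eta (Polh). Proximal tubule cells take up cisplatin and are its main target in the kidney.

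The 9 libraries held 216680 barcodes and 70106161 to 101525691 UMIs per mouse. Filtering left 196925 cells, a number that differs from the one the study analysed, and clustering gave 14 marker-named types, of which proximal tubule (PT) cells were 141282. No type was named for 16142 cells (8.20%), from 4.38% of those of AKI-CKD + EGT mouse 3 to 14.3% in Control mouse 3. Most were in a PT-led cluster of 11484 cells and a cluster of 4582 led by haemoglobin genes, 45.1% of the latter from Control mouse 3. Barcodes were running cell names rather than sequences. Any 2 libraries had 3583 to 7810 of these names in common, of which 0 had the same UMIs and genes. The mitochondrial share of the kept UMIs ran from 1.55% in Control mouse 3 to 6.39% in AKI-CKD + EGT mouse 3, with Control mouse 1 at 6.08%. PT transcripts were also counted in every other cell type. The 16 PT markers summed to 114054 CPM (UMI counts scaled to the same total in every library) in PT cells, 74317 in loop of Henle (LOH) cells, 65096 in distal convoluted tubule (DCT) cells, 52180 in endothelial cells and 73739 in macrophages. The part of these transcripts in the members' values was not tested.

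None of the members passed the test between groups in any population. UMIs were summed per mouse in all kept cells and in PT, LOH, DCT and endothelial cells and macrophages, and edgeR's quasi-likelihood F test was run over all genes of each population, with a gene called at an adjusted p under 0.05. Of 180 possible tests of the members in 3 comparisons, 159 were run and 0 were called, with a lowest adjusted p of 0.409 in edgeR, for Ercc1 in PT cells. At an unadjusted p under 0.05 there were 9. The share of all genes at that level was 3.44% to 15.1%, depending on the population and comparison. With DESeq2 there were 0 called and 4 at that level, while 50 of its tests gave no adjusted p. The 21 tests not run concerned Polh in LOH cells, endothelial cells and macrophages, Ddb2 in endothelial cells and macrophages, and Ercc4 and Ercc5 in macrophages, whose counts were too low. In 129 of the 159 tests the 95% interval of the fold change lay within 2-fold in either direction, and in 30 it did not. Calls were rare among all genes as well. The 3 comparisons share mice, so their results are not independent of each other.

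In PT cells, AKI-CKD against Control asks whether the cells that take up cisplatin carried more or less repair mRNA at the end of the model. Of 17816 genes tested, 0.0449% were called and 21.1% had groups of 3 mice that did not overlap, 2010 genes having an unadjusted p under 0.05. Among the 10 members 0 were called, 2 had groups that did not overlap (Ercc1 and Ercc3, both higher in AKI-CKD), and the median log2 fold change was 0.08 against -0.01 over all genes. Scaled to total UMIs in place of TMM (edgeR's library size normalisation), the members' median was -0.02 and that of all genes -0.11, and Ercc5 and Xpa changed sign. With that scaling 19.9% of genes and, of the members, only Ercc1 had groups that did not overlap. Under TMM the 95% interval lay within 1.5-fold for 7 members and within 2-fold for 9. For most members in PT cells larger changes were therefore outside the interval under that scaling. With total UMIs the log2 intervals of Ddb2, -1.04 to 0.63, and Polh, -1.17 to 0.26, went beyond 2-fold. Unless stated otherwise, CPM values below are scaled by TMM, whose factor was 1.21 for AKI-CKD + EGT mouse 3 and lay between 0.891 and 1.06 for the 8 others.

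**Figure D1:**
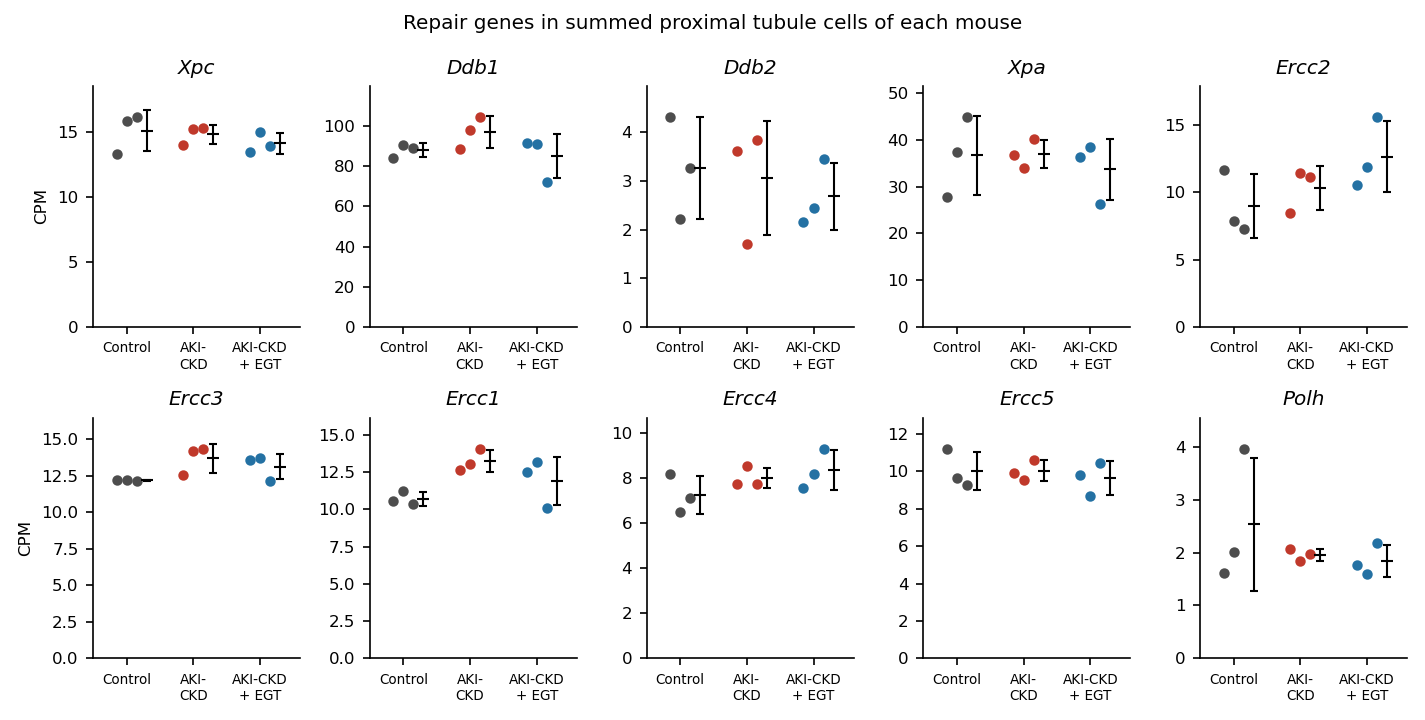
Level of each member in PT cells (y axis, TMM-scaled CPM, each panel with its own scale from 0) in the 3 mice of each group, with a point per mouse and bars for the mean and SD. The groups overlap in most panels, and Ercc1 and Ercc3 are higher in the 3 AKI-CKD mice than in the 3 Control mice.

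None of the damage sensors passed the test between PT cells of Control and AKI-CKD mice. Xpc, the sensor that starts global repair, was at 13.3, 15.9 and 16.1 CPM in Control mice 1 to 3 and at 14.0, 15.2 and 15.3 CPM in AKI-CKD mice 1 to 3. The AKI-CKD values all lay inside the Control range, with a log2 fold change of -0.03 (SE 0.11, 95% interval -0.28 to 0.23, adjusted p = 0.942, edgeR). Ddb1, the adaptor of the CUL4 ubiquitin ligase that works with Ddb2, was at 83.9, 90.8 and 89.2 CPM in Control mice and at 88.3, 97.96 and 104 CPM in AKI-CKD. The groups overlapped through AKI-CKD mouse 1, and the log2 fold change was 0.14 (SE 0.13, adjusted p = 0.675, edgeR). Ddb2, the subunit that binds the damaged site, was counted by only 87 to 287 UMIs per mouse. Its levels of 4.31, 2.22 and 3.27 CPM in Control mice and 3.62, 1.70 and 3.85 CPM in AKI-CKD crossed each other, and the interval of its log2 fold change, -0.82 to 0.64, was among the widest of the members.

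Verification and opening of the damaged DNA involve Xpa and the TFIIH helicases. Xpa varied widely among Control mice, at 27.8, 37.4 and 44.8 CPM, and all 3 AKI-CKD mice, at 36.9, 34.0 and 40.1 CPM, lay within it. Its log2 fold change was 0.01 (SE 0.19, 95% interval -0.40 to 0.42, adjusted p = 0.986, edgeR). Ercc2, the XPD helicase, was at 11.7, 7.90 and 7.31 CPM in Control mice and 8.47, 11.4 and 11.2 CPM in AKI-CKD, where the highest value belonged to a Control mouse. Its log2 fold change was 0.21 (SE 0.21, adjusted p = 0.696, edgeR). Ercc3, the XPB translocase, had the tightest Control values of the members, 12.21, 12.23 and 12.16 CPM, and stood at 12.6, 14.2 and 14.3 CPM in AKI-CKD. All 3 AKI-CKD mice were above all 3 Control mice, AKI-CKD mouse 1 by little, and the log2 fold change of 0.17 did not pass the test (SE 0.11, adjusted p = 0.541, edgeR). Scaled to total UMIs, Ercc3 was at 12.98, 11.5 and 11.9 CPM in Control mice and 12.07, 13.3 and 12.8 CPM in AKI-CKD mice, which overlapped.

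Of the nucleases, Ercc1 differed most between the 2 groups. Ercc1, the partner that positions XPF, was at 10.6, 11.2 and 10.4 CPM in Control mice and at 12.6, 13.04 and 14.1 CPM in AKI-CKD mice, from 469 to 1009 UMIs per mouse over the 9 mice. The groups did not overlap and the log2 fold change was 0.30 (SE 0.12, 95% interval 0.03 to 0.58), a 1.24-fold difference, with an unadjusted p of 0.0313 and an adjusted p of 0.409 in edgeR. That value lies among 2010 genes with an unadjusted p under 0.05 in this comparison. Scaled to total UMIs, the groups of Ercc1 did not overlap either, at 11.2, 10.6 and 10.1 CPM in Control mice and 12.1, 12.2 and 12.5 CPM in AKI-CKD mice, with a log2 fold change of 0.21 (adjusted p = 0.478, edgeR). Ercc4, the XPF catalytic subunit, was at 8.18, 6.53 and 7.11 CPM in Control mice and 7.73, 8.54 and 7.76 CPM in AKI-CKD. These ranges overlapped, and its log2 fold change of 0.14 had an SE of 0.13. Ercc5, the XPG nuclease that cuts on the other side of the lesion, was at 11.2, 9.64 and 9.25 CPM in Control mice and 9.93, 9.54 and 10.6 CPM in AKI-CKD. The group means of Ercc5 were both 10.03 CPM (SD 1.03 in Control and 0.557 in AKI-CKD, n = 3 mice each). Polh, the bypass polymerase, was the least counted member, with 92 to 281 UMIs per mouse. Its Control values of 1.62, 2.02 and 3.96 CPM were spread by Control mouse 3, while AKI-CKD mice were close together at 2.06, 1.84 and 1.97 CPM. The log2 fold change of Polh was -0.37 with a 95% interval of -1.04 to 0.30, and it was 0.11 without Control mouse 3.

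**Figure D2:**
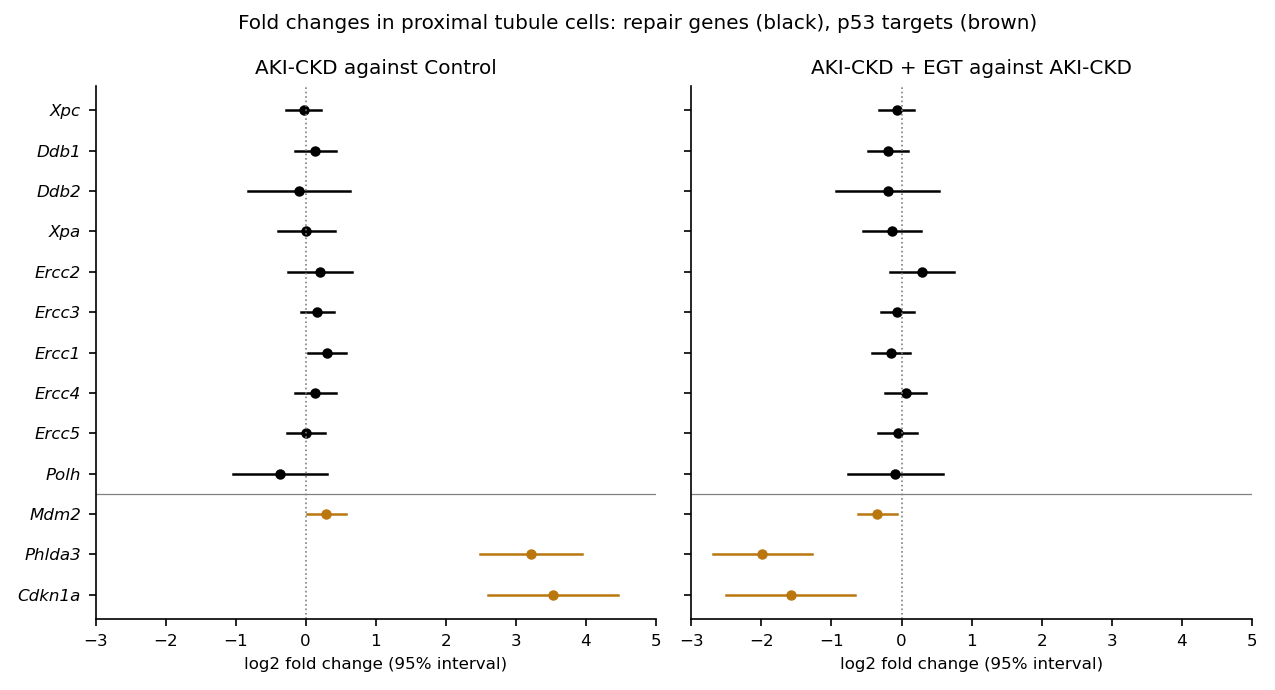
Log2 fold change with 95% interval (x axis, log2 scale, TMM) of the 10 members, in black, and of Mdm2, Phlda3 and Cdkn1a, in brown, in PT cells, on the left for AKI-CKD against Control and on the right for the EGT comparison. The members lie between -0.37 and 0.30 in both panels, while Phlda3 and Cdkn1a lie at 3.22 and 3.53 on the left and at -1.99 and -1.58 on the right.

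Some p53 targets rose in the same PT cells. p53 is the transcription factor that DNA damage stabilises, and Cdkn1a (p21, which stops the cell cycle), Phlda3, Eda2r and Psrc1 are among its targets. Cdkn1a was at 9.47, 9.07 and 4.02 CPM in Control mice and at 47.5, 122 and 91.1 CPM in AKI-CKD mice. It rose by 3.53 on the log2 scale (SE 0.42, adjusted p = 0.0275, edgeR). Malat1, a nuclear RNA, was at 8988, 9743 and 8011 CPM over total UMIs in Control mice and 9293, 4742 and 2808 in AKI-CKD mice. The part of this difference in the p53 targets was not tested. Phlda3 rose by 3.22 (adjusted p = 0.0111, edgeR), Eda2r by 3.45 (adjusted p = 0.0208, edgeR) and Psrc1 by 2.43 (adjusted p = 0.0352, edgeR), the last pair from AKI-CKD averages of only 1.07 and 1.32 CPM. Of 25 listed targets that are not members, 4 were called, 13 had an unadjusted p under 0.05, all higher in AKI-CKD, and the median was 0.51. Over all genes 0.0449% were called and 11.3% had an unadjusted p under 0.05. The list was chosen with earlier results of these data known, and Eda2r and Psrc1 are named because they were called. These counts are therefore a description and not an independent contrast to the members. Against AKI-CKD, AKI-CKD + EGT mice had a log2 fold change of -1.58 for Cdkn1a (adjusted p = 0.218, edgeR) and -1.99 for Phlda3 (adjusted p = 0.214, edgeR), with 0 of the 25 called. Mdm2, the ubiquitin ligase that restrains p53, was at 0.29 for AKI-CKD against Control (adjusted p = 0.418, edgeR). For AKI-CKD + EGT versus AKI-CKD it was at -0.34 (adjusted p = 0.267, edgeR). For AKI-CKD against Control, the 4 members that are also listed as p53 targets, Xpc, Ddb2, Ercc5 and Polh, had a median of -0.06. Of these 0 were called and 0 were at an unadjusted p under 0.05. Whether p53 acts on them in these cells was not tested. Without 1 of the 6 mice the calls often ended: Cdkn1a was called in 1 of 6 such fits, Phlda3 in 3, Eda2r in 2 and Psrc1 in 0, with log2 fold changes of 2.30 or more throughout. Cdkn1a lost its call without Control mouse 1, 2 or 3 or AKI-CKD mouse 2 or 3, Phlda3 without Control mouse 2 or 3 or AKI-CKD mouse 3, Eda2r without Control mouse 2 or 3 or AKI-CKD mouse 2 or 3, and Psrc1 without any of the 6. With library sizes as total UMIs only Phlda3 of the 4 kept its call (adjusted p = 0.0329, edgeR). Of 11 other settings that left out none of the 6 mice, Phlda3 was called in 10, Cdkn1a in 8, Psrc1 in 7 and Eda2r in 6. The replicate block ended all 4 calls, clustering without Harmony those of Cdkn1a, Eda2r and Psrc1, thinning to 1 depth those of Eda2r and Psrc1, and a fit of only the 6 mice compared that of Eda2r.

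Other repair genes did not pass the test either. Of 81 further genes listed for damage recognition, TFIIH, transcription coupling, gap filling, translesion synthesis, crosslink repair and mismatch repair, 80 were tested in PT cells and 0 were called, with 10 at an unadjusted p under 0.05 and a median log2 fold change of -0.01. Among the recognition factors Rbx1, the RING subunit of the CUL4 ligase, was at 0.36 (adjusted p = 0.411, edgeR) and Cetn2, which binds XPC, at -0.07. Of the other TFIIH subunits Gtf2h5 was at 0.31 (adjusted p = 0.436, edgeR), while Mnat1 was at -0.09 and Ccnh at -0.05, both of the kinase module. Transcription-coupling factors had log2 fold changes of 0.21 for Elof1, 0.07 for Tcea1 and -0.06 for Usp7. In gap filling Xrcc1, the ligase scaffold, was at 0.33 (adjusted p = 0.423, edgeR), and the polymerase subunits Pole3 and Pold4 were both at 0.18. Ube2a and Ube2b, the ubiquitin conjugases that mark PCNA for bypass, were at 0.17 and -0.20. The 21 crosslink repair genes had a median of -0.06 and the 8 mismatch repair genes one of 0.04.

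The comparison of AKI-CKD + EGT with AKI-CKD asks whether ergothioneine shifted these levels in cisplatin-treated mice. In PT cells 0.0% of genes were called, 21.1% had groups that did not overlap, and 2697 genes had an unadjusted p under 0.05. Of the members 0 were called, 0 reached an unadjusted p under 0.05 and 0 had groups that did not overlap. Under TMM the 95% interval lay within 2-fold for all 10. With total UMIs 25.4% of genes and 1 member, Ercc3, had groups that did not overlap. The interval of Ercc2 was then -0.03 to 1.11 on the log2 scale, which went beyond 2-fold. Under TMM the members' log2 fold changes ran from -0.20 (Ddb2) to 0.29 (Ercc2), with 2 of 10 above 0. With library sizes as total UMIs 10 of 10 were above 0, which changed the sign of 8 members. That scaling moved the median of all genes by 0.22, to 0.21, and the members' median from -0.08 to 0.15. The members' median was below that of all genes under both scalings, and no direction of a member is read from this comparison. The same change of scaling moved the median of all genes by 0.13 in PT cells for AKI-CKD + EGT against Control, by 0.23 and 0.17 in all kept cells for the comparisons of AKI-CKD + EGT with AKI-CKD and with Control, and by 0.10 in DCT cells for the first of these.

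The mice of the AKI-CKD + EGT group differed among themselves. Mice 1 to 3 had 12.5, 13.2 and 10.1 CPM of Ercc1, 36.3, 38.4 and 26.3 CPM of Xpa and 91.4, 91.2 and 72.2 CPM of Ddb1. Mouse 3 was the lowest of all 9 mice for each of these 3 genes. Scaled to total UMIs, mouse 3 had 12.2 CPM of Ercc1, 31.9 CPM of Xpa and 87.4 CPM of Ddb1, and was the lowest of the 9 for none of them. Ercc3 was at 13.6, 13.7 and 12.2 CPM, Xpc at 13.4, 14.98 and 13.9 CPM and Ddb2 at 2.15, 2.45 and 3.45 CPM. Under TMM these values overlapped both other groups, with the third mouse at the level of the Control mice for Ercc3. Scaled to total UMIs, Ercc3 was at 13.6, 14.4 and 14.7 CPM, above all 6 other mice, with mouse 3 the highest of the 9. Ercc2 was at 10.5, 11.9 and 15.6 CPM, and mouse 3 was the highest of all 9 mice under both scalings. Ercc4, at 7.57, 8.22 and 9.31 CPM, Ercc5, at 9.81, 8.67 and 10.5 CPM, and Polh, at 1.76, 1.59 and 2.18 CPM, also overlapped both other groups. The mitochondrial share in PT cells was 3.38%, 4.01% and 5.41% in AKI-CKD + EGT mice 1 to 3, above the 1.90% to 3.004% of the AKI-CKD mice, while Control mice spanned 1.46% to 5.79%. In each of the 6 populations the share of all AKI-CKD + EGT mice was above that of all AKI-CKD mice. DCT marker transcripts in the PT sums moved with the groups, at 57.6 to 141 CPM in Control mice, 26.2 to 55.5 in AKI-CKD and 97.8 to 295 in AKI-CKD + EGT, and the part of either in these values was not tested.

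Against Control, AKI-CKD + EGT PT cells showed 1 member with an unadjusted p under 0.05. This was Ercc2, with a log2 fold change of 0.50 (SE 0.21, unadjusted p = 0.0373, adjusted p = 0.641, edgeR), and its groups overlapped through Control mouse 1. Without AKI-CKD + EGT mouse 3 it was 0.31. In this comparison 0.0% of genes were called and 10.5% had groups that did not overlap, against 0 and 0 of the members. With total UMIs 11.9% of genes and 2 members, Ercc1 and Ercc3, both higher in AKI-CKD + EGT, had groups that did not overlap. The lowest log2 fold change was that of Polh, -0.46, with a 95% interval of -1.14 to 0.21. With library sizes as total UMIs 4 of the 10 members changed sign, and Ercc1 and Ercc2, at 0.28 and 0.63, had an unadjusted p under 0.05 but an adjusted p of 0.521 and 0.536 in edgeR. With that scaling 1549 of 17816 genes had an unadjusted p under 0.05.

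Sums over all kept cells mix the cell types, so a change in the mix and a change within cells cannot be told apart. Of 20144 genes tested there, 0.0199% were called for AKI-CKD against Control and 0.00496% in each of the other comparisons, against 0 members. Groups did not overlap for 15.8% of genes in the first comparison, 18.3% for AKI-CKD + EGT versus AKI-CKD and 13.3% for AKI-CKD + EGT against Control, against 2, 0 and 0 members. The 2 members were again Ercc1 and Ercc3. Over total UMIs only Ercc1 remained apart in the first comparison, while Ercc3 was apart in the other two and Ercc1 in the last, of 15.5%, 22.8% and 15.7% of genes. Ercc1 was at 11.9, 12.1 and 12.04 CPM in Control mice and at 14.0, 14.3 and 15.7 CPM in AKI-CKD, with a log2 fold change of 0.29 (SE 0.13, unadjusted p = 0.0493, adjusted p = 0.617, edgeR). PT cells made up most of these sums, so this value largely repeats the one above.

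In LOH cells, which build the medullary salt gradient, 9 members were tested and 0 were called. Of 11560 genes, 0.0% were called for AKI-CKD against Control, 0.00865% for AKI-CKD + EGT versus AKI-CKD and 0.0% for AKI-CKD + EGT against Control, and groups did not overlap for 13.6%, 13.9% and 8.68%. For the members these counts of groups apart were 2, 1 and 0. Ercc1 was at 17.2, 16.6 and 16.3 CPM in Control mice, 19.9, 19.6 and 21.7 CPM in AKI-CKD and 17.4, 14.4 and 15.1 CPM in AKI-CKD + EGT. The 3 AKI-CKD mice were above all 6 others, with log2 fold changes of 0.29 against Control (adjusted p = 0.651, edgeR) and -0.40 for AKI-CKD + EGT versus AKI-CKD (adjusted p = 0.499, edgeR), neither of which passed the test. Ercc2 was at 13.8, 13.5 and 7.19 CPM in Control mice and at 19.2, 15.3 and 17.0 CPM in AKI-CKD, but AKI-CKD + EGT mice spanned 10.9 to 19.99 CPM. Its log2 fold change of 0.53 for AKI-CKD against Control had a 95% interval of -0.11 to 1.17. The summed PT markers in these LOH cells were 79382 to 98026 CPM in Control mice, 39372 to 75631 in AKI-CKD and 56640 to 74500 in AKI-CKD + EGT, and their part was not tested.

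In the cells named DCT, a segment that reabsorbs sodium chloride through Slc12a3, 0 of 10 members were called and 3 tests had an unadjusted p under 0.05. They came from 3 clusters, of which the one with 4893 of the 13099 cells had 5 of the 6 DCT markers raised but was led by S100g, Klk1 and Calb1, with Calb1 the only DCT marker among its top 10 genes. The members were not compared between these clusters. Of 11997 genes, 0.0% were called in each comparison, and groups did not overlap for 15.8% for AKI-CKD against Control, 16.1% for AKI-CKD + EGT versus AKI-CKD and 9.28% for AKI-CKD + EGT against Control. An unadjusted p under 0.05 was found for 9.16%, 11.7% and 5.07% of genes in the same order, and for 1 member in each. Xpa was at 30.3, 30.2 and 36.8 CPM in Control mice, 26.0, 20.1 and 27.8 CPM in AKI-CKD and 30.4, 33.5 and 31.3 CPM in AKI-CKD + EGT. The 3 AKI-CKD mice were the lowest of the 9, and the log2 fold changes were -0.40 against Control (SE 0.17, unadjusted p = 0.0364, adjusted p = 0.53, edgeR) and 0.37 between AKI-CKD + EGT and AKI-CKD (SE 0.17, unadjusted p = 0.0466, adjusted p = 0.421, edgeR). Without AKI-CKD mouse 2 these were -0.26 and 0.23. The Xpa gene overlaps Ncbp1 on the opposite strand, and whether the counting used the strand is not given in the sources used here. Ddb2 was at 1.63, 4.01 and 2.01 CPM in Control mice, 2.12, 3.46 and 2.92 CPM in AKI-CKD and 4.03, 6.66 and 4.22 CPM in AKI-CKD + EGT. All 3 AKI-CKD + EGT mice were above the 6 others, the lowest of them by little, from sums of 6 to 35 UMIs per mouse, and the log2 fold change against Control was 0.93 (95% interval 0.06 to 1.81, unadjusted p = 0.0355, adjusted p = 0.957, edgeR). Without 1 mouse it ran from 0.68, without Control mouse 1, to 1.43, without Control mouse 2. Xpc was at 14.9, 17.0 and 19.0 CPM in Control mice and at 13.8, 12.9 and 13.5 CPM in AKI-CKD + EGT, whose mice lay below the Control mice with a log2 fold change of -0.34 (SE 0.17, adjusted p = 0.957, edgeR). Ercc1 in AKI-CKD, at 20.9, 24.6 and 21.5 CPM, was above the Control values of 19.1, 16.0 and 19.5 CPM. Its log2 fold change of 0.30 had an adjusted p of 0.662 in edgeR. Ercc2 in AKI-CKD + EGT mice was above AKI-CKD mice, with a log2 fold change of 0.23 (adjusted p = 0.729, edgeR). So 2, 3 and 2 of the 10 members had groups that did not overlap in the 3 comparisons. PT marker transcripts in DCT cells were 72953 to 87797 CPM in Control mice, 29451 to 72122 in AKI-CKD and 41369 to 70412 in AKI-CKD + EGT, and their part in these values was not tested.

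In endothelial cells Xpc was lower in the AKI-CKD mice, without passing the test. Xpc was at 25.3, 22.1 and 17.3 CPM in Control mice, 11.6, 16.1 and 13.2 CPM in AKI-CKD and 18.8, 19.0 and 17.1 CPM in AKI-CKD + EGT, from 14 to 35 UMIs per mouse. The 3 AKI-CKD mice were the lowest of the 9. The log2 fold change against Control was -0.65 (SE 0.26, 95% interval -1.20 to -0.09, unadjusted p = 0.0238, adjusted p = 0.472, edgeR), and for AKI-CKD + EGT versus AKI-CKD it was 0.40 (SE 0.26, adjusted p = 0.621, edgeR). Ddb1 was at 115, 115 and 98.8 CPM in Control mice and at 91.7, 87.1 and 90.7 CPM in AKI-CKD + EGT, with a log2 fold change of -0.29 (adjusted p = 0.986, edgeR). Of 10373 genes, 0.0% were called for AKI-CKD against Control, 0.00964% for AKI-CKD + EGT versus AKI-CKD and 0.0193% for AKI-CKD + EGT against Control, while 14.8%, 15.2% and 11.6% had groups that did not overlap. Of the 8 members tested 0 were called and 1 had groups apart in each comparison. An unadjusted p under 0.05 was found for 9.59%, 10.2% and 4.97% of genes in the same order, against 1, 0 and 0 members. The summed PT markers in these cells were 61938 to 73780 CPM in Control mice, 23212 to 59209 in AKI-CKD and 33303 to 54048 in AKI-CKD + EGT, and their part was not tested.

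Ercc2 in macrophages had the largest fold change of the 159 tests, on very few molecules. Its levels were 10.1, 3.45 and 9.64 CPM in Control mice, 6.45, 2.96 and 4.29 CPM in AKI-CKD and 21.0, 14.1 and 21.7 CPM in AKI-CKD + EGT, from 1 to 19 UMIs per mouse. All 3 AKI-CKD + EGT mice were above the 6 others. The log2 fold change for AKI-CKD + EGT versus AKI-CKD was 2.18 (SE 0.68, 95% interval 0.74 to 3.63, unadjusted p = 0.00244, adjusted p = 0.544, edgeR), and against Control it was 1.23 (SE 0.48, unadjusted p = 0.0177, adjusted p = 1, edgeR). In these comparisons 7.39% and 3.44% of genes had an unadjusted p under 0.05, against 1 and 1 of the 6 members tested. AKI-CKD mouse 1 gave only 161083 UMIs of macrophages. The summed PT markers in macrophages were 77228 to 105018 CPM in Control, 41146 to 93745 in AKI-CKD and 53807 to 69239 in AKI-CKD + EGT, whose mice lay below the Control mice. The mitochondrial share in macrophages was 2.07% to 3.28% in AKI-CKD and 3.55% to 7.30% in AKI-CKD + EGT, which did not overlap, and the part of either was not tested. Of 7351 genes, 0.0136% were called for AKI-CKD against Control and for AKI-CKD + EGT versus AKI-CKD and 0.0% for AKI-CKD + EGT against Control, and 11.5%, 12.9% and 9.39% had groups that did not overlap, against 0, 1 and 1 of the 6 members tested. Ercc2 overlaps Klc3 and Gm26852 on the opposite strand, Ercc1 overlaps Cd3eap, Ddb1 overlaps Tkfc and Ddb2 overlaps Acp2, so for these too reads of the partner could not be told apart if the strand was ignored.

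Cell types of the same mouse were then compared, which asks where in the kidney the members were expressed, whatever the treatment. CPM over plain total UMIs was used here, and the difference in log2(CPM + 1) between a pair of types was tested over the 9 mice by an exact two-sided sign-flip permutation test. Of 50 tests, 10 members in 5 pairs of types, 12 passed after Benjamini-Hochberg adjustment, 10 of them higher in the second type of the pair than in PT cells. The test was run for the members only. The share of all genes that would pass is not known, so the count cannot be read as particular to repair genes. The smallest p the test can give with 9 mice is 0.00391. With 8 mice it is 0.00781, and 0 of the 50 tests passed when any mouse but AKI-CKD + EGT mouse 3 was left out, and 9 without that mouse. Because PT transcripts were counted in the other types as well, and with different sums in each, the part of such transcripts in these differences was not tested.

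**Figure D3:**
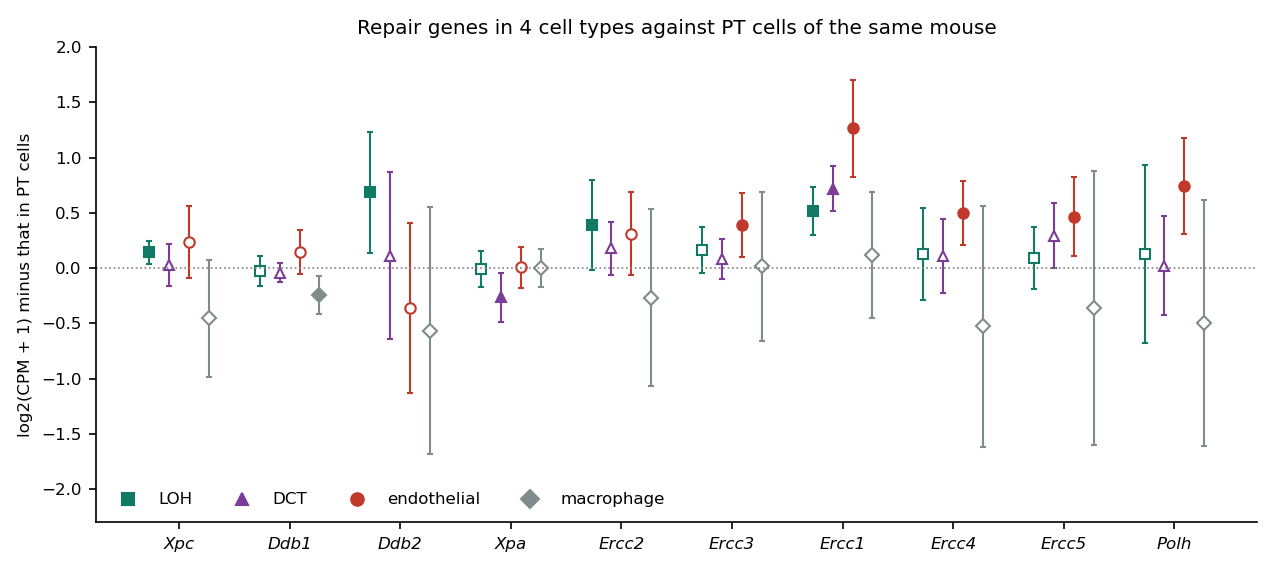
Mean difference of each member between LOH, DCT or endothelial cells or macrophages and PT cells of the same mouse (y axis, log2(CPM + 1) difference), with bars for the SD over 9 mice and filled symbols for an adjusted p under 0.05. Ercc1 has filled symbols at 0.52 in LOH, 0.72 in DCT and 1.27 in endothelial cells.

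Ercc1 was higher in LOH, DCT and endothelial cells than in PT cells. It averaged 11.9 ± 1.14 CPM in PT cells (SD, n = 9 mice), 17.6 ± 2.46 in LOH cells, 20.5 ± 3.35 in DCT cells and 31.4 ± 9.70 in endothelial cells, and was higher in each of these types than in PT cells in 9 of 9 mice. The log2 differences were 0.52 (SD 0.22) in LOH, 0.72 (SD 0.20) in DCT and 1.27 (SD 0.44) in endothelial cells, the last a 2.63-fold ratio of the means, each with an adjusted p of 0.0326 in the exact permutation test. In the other types compared Ercc1 averaged 20.4 ± 7.97 CPM in thin limb cells, 19.5 ± 6.65 in collecting duct principal cells, 19.0 ± 5.85 in intercalated cells and 13.8 ± 4.74 in macrophages. Against macrophages the log2 difference from PT cells was 0.12 (SD 0.57, higher in 6 of 9 mice, adjusted p = 0.718, exact permutation test) and did not pass. When 8 of the 14 named types were put in order of level, only the step from endothelial to DCT cells exceeded the SD of its own differences over mice.

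The partner nucleases and the bypass polymerase were also higher in endothelial cells than in PT cells. Ercc4 averaged 11.8 ± 2.61 CPM in endothelial and 7.96 ± 1.49 in PT cells, a log2 difference of 0.50 (higher in 8 of 9 mice, adjusted p = 0.0434, exact permutation test). Ercc5 averaged 14.5 ± 3.86 and 9.96 ± 1.37 CPM, a log2 difference of 0.46 (8 of 9 mice, adjusted p = 0.0488, exact permutation test). Polh averaged 4.42 ± 1.96 and 2.11 ± 0.723 CPM, a log2 difference of 0.74 (8 of 9 mice, adjusted p = 0.0434, exact permutation test). In endothelial cells Polh was counted by only 3 to 9 UMIs per mouse, too few for the test between groups. Thus all 3 nuclease genes and Polh passed in this pair. The helicase gene Ercc3 did so too, at 17.6 ± 3.02 and 13.03 ± 1.11 CPM, with a log2 difference of 0.39 (8 of 9 mice, adjusted p = 0.0488, exact permutation test). In the order of the 8 types none of the neighbouring steps of Ercc3, Ercc4, Ercc5 or Polh exceeded the SD of its differences. Polh was at 0 in 3 of 9 mice in thin limb cells and macrophages and in 2 in intercalated cells, where its sums were 11, 11 and 18 UMIs.

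Of the sensors and verification factors, Xpc and Ddb2 passed in LOH cells. Xpc averaged 16.3 ± 1.60 CPM in LOH and 14.7 ± 1.22 in PT cells, higher in 9 of 9 mice by 0.14 on the log2 scale (adjusted p = 0.0326, exact permutation test). Ddb2 averaged 5.41 ± 1.18 CPM in LOH and 3.03 ± 1.00 in PT cells, a log2 difference of 0.69 (8 of 9 mice, adjusted p = 0.0488, exact permutation test). Its sums in LOH cells were only 5 to 30 UMIs per mouse. Ddb2 was highest in collecting duct principal cells, at 6.74 ± 2.62 CPM from 65 UMIs. The step from principal cells to LOH cells did not exceed the SD of its differences over mice. Ercc2 averaged 14.5 ± 4.09 CPM in LOH and 10.9 ± 3.59 in PT cells, a log2 difference of 0.39 in the same direction in 9 of 9 mice (adjusted p = 0.0326, exact permutation test). Only 2 of the differences that passed ran the other way. Xpa was lower in DCT cells, at 29.7 ± 5.51 CPM, than in PT cells, at 35.6 ± 4.39 (log2 difference -0.26, lower in 8 of 9 mice, adjusted p = 0.0434, exact permutation test). Ddb1 was lower in macrophages, at 76.1 ± 8.63 CPM, than in PT cells, at 89.6 ± 3.803 (log2 difference -0.24, lower in 9 of 9 mice, adjusted p = 0.0326, exact permutation test).

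Across the 8 types the mean level of Ddb2 ran from 2.15 CPM in macrophages to 6.74 CPM in principal cells, that of Polh from 1.48 CPM in intercalated cells to 4.42 CPM in endothelial cells, and that of Ercc1 from 11.9 to 31.4 CPM. Ddb1 lay between 76.1 CPM in macrophages and 103 CPM in collecting duct principal cells, and only its step from DCT cells to macrophages exceeded the SD over mice. Xpa lay between 23.2 CPM in intercalated cells and 35.9 CPM in macrophages, with LOH, endothelial and PT cells at 35.6, 35.7 and 35.6 CPM. Xpc ran from 11.3 CPM in macrophages to 22.5 CPM in intercalated cells, and Ercc2 from 10.5 CPM in macrophages to 17.4 CPM in principal cells. Ercc3 ran from 12.4 CPM in intercalated cells to 17.6 CPM in endothelial cells, Ercc4 from 6.32 CPM in macrophages to 11.996 CPM in intercalated cells and Ercc5 from 9.47 CPM in macrophages to 17.1 CPM in principal cells. None of the neighbouring steps of Xpa, Xpc, Ercc2, Ercc3, Ercc4 or Ercc5 exceeded the SD over mice. LOH and DCT cells, compared directly, had 0 of 10 members with an adjusted p under 0.05 in the exact permutation test. The log2 difference of DCT from LOH cells was 0.20 for Ercc1, higher in 8 of 9 mice, and -0.57 for Ddb2, higher in 1 of 9. Each had an adjusted p of 0.0651 in that test.

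The relation of mitochondrial share and the level of Xpa over the 9 mice in PT cells passed by Pearson's r under TMM only. This relation was looked for after the values were seen, in 10 relations, one per member. For Xpa, Pearson's r was -0.87 (exact permutation p = 0.00396, adjusted p = 0.0396) and Spearman's rho was -0.67 (exact permutation p = 0.0589, adjusted p = 0.222). The 2 mice farthest from the median share were AKI-CKD + EGT mouse 3 and Control mouse 1. Without them r kept its sign, at -0.58 over 7 mice, but did not pass (exact permutation p = 0.173). The permutations exchanged mice across groups, although the shares of AKI-CKD and AKI-CKD + EGT mice did not overlap. The deviations of Xpa from the group means gave an r of -0.92. With CPM over total UMIs, r was -0.62 (exact permutation p = 0.074, adjusted p = 0.185) and rho was -0.58 (exact permutation p = 0.108, adjusted p = 0.27). The sign was kept, but neither passed. Ddb1 had an r of -0.73 (exact permutation p = 0.024, adjusted p = 0.12) under TMM and of -0.08 over total UMIs (adjusted p = 0.823). Ercc2 had an r of 0.60 (exact permutation p = 0.0808, adjusted p = 0.202) under TMM and of 0.69 over total UMIs (exact permutation p = 0.0329, adjusted p = 0.14). Polh had an r of -0.53 (exact permutation p = 0.152, adjusted p = 0.277) over the 9 mice, and without the same 2 mice its r was -0.70 (exact permutation p = 0.0278, unadjusted), or -0.64 over total UMIs. None of the remaining 6 members had an adjusted p under 0.05 for r under either scaling, and none of the 10 for rho. For every member r was lower under TMM than over total UMIs, as for Xpc, at -0.65 against 0.30. TMM divides CPM by a factor that was highest in the 2 mice with the highest share, AKI-CKD + EGT mouse 3 (1.21) and Control mouse 1 (1.06). It was 0.891 in AKI-CKD mouse 3 and 0.977 in Control mouse 3, whose shares were 1.90% and 1.46%. The part of this factor in r was not tested.

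**Figure D4:**
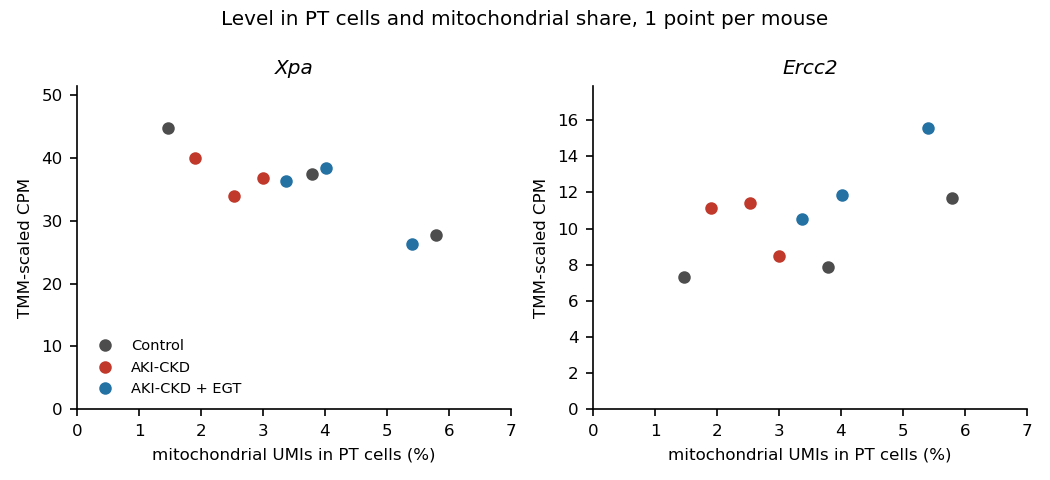
Level of Xpa (left) and Ercc2 (right) in PT cells (y axis, TMM-scaled CPM) against the mitochondrial share of the UMIs of PT cells (x axis, percent), with a point per mouse coloured by group. The 2 mice with shares of 5.41% and 5.79% have the lowest Xpa, at 26.3 and 27.8 CPM.

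Under TMM, Xpa had the lowest and Ercc2 the highest r with that share, and over total UMIs Xpa again the lowest and Ercc5 the highest, at 0.80 (exact permutation p = 0.014, adjusted p = 0.14). The start regions of Xpa and Ercc2 are shown so that they can be compared. RefSeq sequence of GRCm38.p6 was used, and 7 of the 10 members had an entry, while Xpc, Ddb2 and Ercc3 had none. The stretches lie at chr4:46196312-46196561 on the minus strand (Xpa, 250 bases) and chr7:19381767-19382009 on the plus strand (Ercc2, 243 bases), upstream of each start site and outside annotated exons. Capitals mark CCAAT (or ATTGG, its reverse) and GGGCGG (or CCGCCC), letters found on either strand.
Xpa: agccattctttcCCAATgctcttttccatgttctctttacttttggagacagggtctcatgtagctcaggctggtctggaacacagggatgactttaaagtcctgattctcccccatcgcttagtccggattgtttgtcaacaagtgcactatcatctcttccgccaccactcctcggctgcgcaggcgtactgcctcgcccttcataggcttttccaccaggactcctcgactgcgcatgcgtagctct
Ercc2: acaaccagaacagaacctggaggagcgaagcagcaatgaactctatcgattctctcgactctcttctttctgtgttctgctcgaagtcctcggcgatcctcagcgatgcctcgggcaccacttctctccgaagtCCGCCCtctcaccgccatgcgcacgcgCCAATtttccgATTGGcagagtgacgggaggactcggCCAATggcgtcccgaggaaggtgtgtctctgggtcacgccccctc
The Xpa stretch held 1 CCAAT and 0 GGGCGG and was 52.0% G or C, while the Ercc2 stretch held 3 and 1 and was 58.8% G or C. Over windows of 300 bases, CCAAT was in 37.4% of 32851 promoters and in those of Xpa, Ercc2, Ercc4 and Ercc5, and GGGCGG was in 35.7% and in those of Ddb1, Ercc2, Ercc1 and Polh. TATAAA was in 13.6% of promoters, CACGTG in 7.15% and the pair of p53 half-sites in 0.0731%, and 0 of the 7 members held any of these. Xpc and Ddb2, which are listed here as p53 targets, could not be searched. These are matches of letters within the window.

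For 3 members the genes most like them in PT cells were listed, by Pearson's r of log2 CPM over the 9 mice among 5889 genes. For Xpc they were Slc29a3 (r = 0.91), Axin1 (0.91), Rpap3 (0.89), Zc3h11a (0.89) and Defb29 (0.89). For Ddb2 they were Gpr107 (r = 0.92), Fbxw11 (0.91), Tns1 (0.88), Foxn3 (0.87) and Trak1 (0.86). For Polh they were Zfp318 (r = 0.95), Cd2ap (0.93), Ctcf (0.92), Ubp1 (0.92) and Ccdc186 (0.92). These genes were picked as the highest of 5889 over only 9 mice, which share their libraries and depth, so the values are a description.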

How the data were processed

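The authors deposited untransformed UMI counts of each gene in each cell for 9 mouse kidneys, written per the file headers by PISA. The submitters' processing notes name GRCm39, and the aligner and strand setting are not given in the sources used here. Cells needed 1000 UMIs, 500 genes and no more than 15% mitochondrial UMIs. They were clustered on 30 principal components after Harmony (resolution 1.1) and named from fixed markers (3 or more raised 2-fold). Scrublet's own calls were not usable, so doublets were left in.

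Counts of a type were added up within each mouse and compared by edgeR 4.0.16 (filterByExpr, TMM, quasi-likelihood F test, 9 mice in a fit) in R 4.3.3, with Benjamini-Hochberg adjustment over all genes of a population and comparison. Scripts were tested on simulated data. There a log2 change of 1 between AKI-CKD and Control was called for 84 of 200 changed genes in PT cells. Over the populations the count ran from 31 in macrophages to 88 in DCT cells, so such a change was often not called. With 200 genes changed at once the adjustment is easier to pass than in the real data, where 8 genes were called in PT cells. The simulated counts are therefore not the share that the real fits would call. Intervals are log2 fold change ± t times SE. DESeq2 1.42.0 and, chosen after seeing the data, library sizes without TMM were among the alternatives. Cell work used Python 3.11.15, scanpy 1.11.5 and scipy 1.17.1. Replicates were separate mice, and p-values cover the spread between them. The members and lists were chosen with earlier results of these data known. Named genes were all members, genes of the repair lists with an adjusted p under 0.05 or up to 3 per list with the largest fold change in PT cells (average log2 CPM of 4 or more), and from the p53 list Cdkn1a, Mdm2, Phlda3 and any called gene. One gene that the rule names is not reported here. Of the other lists checked in PT cells for AKI-CKD against Control, 0 of 14 dissociation, 0 of 7 tubule injury and 0 of 3 nuclear RNA genes were called. Overlapping genes came from GENCODE M21.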

Additional observations from a re-analysis of the deposited data

How the results depend on the processing

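In each of the 18 combinations of population and comparison the count of members called was 0, and all 288 values of these counts under the alternatives were 0. These were DESeq2, the replicate block, no low-count filter, TMM after leaving Malat1, mitochondrial and ribosomal protein UMIs out of the library sizes, fits of only the 6 mice compared, at most 10% mitochondrial UMIs, without the 6% highest Scrublet scores, without Harmony and without each mouse, and 3 chosen after seeing the data (unnamed PT-led and haemoglobin-led clusters counted as PT, all mice thinned to 1 depth, and library sizes without TMM). The lowest adjusted p of a member was 0.142, for Ercc2 in macrophages with no filter on low counts (edgeR). For AKI-CKD against Control in PT cells, Ercc5 had a log2 fold change of 0.0006, which became -0.004 with DESeq2, -0.0241 with only the 6 mice compared, -0.0205 at most 10% mitochondrial UMIs, -0.0295 without the highest Scrublet scores, -0.0418 without Harmony, -0.0443 after thinning and -0.1005 without TMM. Xpa was at -0.0075 with only the 6 mice compared and -0.0745 without TMM. Leaving out 1 mouse gave ranges of -0.3009 to 0.1991 for Ddb2, -0.051 to 0.0871 for Ercc5, -0.6104 to 0.1087 for Polh, -0.1528 to 0.1836 for Xpa and -0.1105 to 0.0271 for Xpc, and, with no change of sign, of 0.0832 to 0.4437 for Ercc2, 0.0691 to 0.2312 for Ercc4 and 0.0829 to 0.2036 for Ddb1. The cause was not tested. Of the 50 tests between cell types 12 passed, and 9 to 13 did under the other settings. Without 1 mouse the count ran from 0 to 9. It was 0 without each mouse but AKI-CKD + EGT mouse 3, and with 8 mice the smallest p is 0.00781.

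Counts of calls over all genes moved with the tool and with the filter. For AKI-CKD against Control in PT cells 8 genes were called, 218 with DESeq2, 99 with no filter, 4 without TMM and 0 with the replicate block. Over the 18 combinations 0 to 8 genes were called, against 0 to 458 with DESeq2, 5 to 418 with no filter and 0 to 2 with the replicate block. With the replicate block 0 members were called in any population, and none of the 4 p53 targets was called. The pairing check gave correlations of same-numbered mice from -0.42 to 0.32 in PT cells, so the numbers were taken as names only. Ddb2 and Polh were the least counted members, and the part of depth in their wide intervals was not tested. Low counts kept 21 tests of members from being run.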
